A study of Mus musculus with 26 samples.

Results

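The 44 genes described here act in S phase, when a cell copies its DNA, and in mitosis, when it divides. They were taken from a list of gene symbols, with no threshold on a measured value. That list was chosen with earlier results of these data known. All 44 genes were on the array, through 58 probes. Probes were tested only if, in 1 or more of the groups, 4 or all 5 animals gave a lung signal well above background, and a gene was read by its brightest such probe. By that filter 39 of the 44 genes were tested, among 22950 features in all. The other 5 genes, Ccne2, Cdk1, Cdc6, Aurkb and Cenpf, were too dim in the lung channel, and how often each was above background is given near the end.

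The samples were lungs of MutaMouse animals, transgenic mice whose genome holds a bacterial reporter gene in which mutations can be scored. Their age is labelled as about 12 weeks, and whether at the first instillation or at collection is not settled here. Exposed animals were given 4 weekly instillations into the trachea of a multiwalled carbon nanotube, either NM-401 or Mitsui XNRi-7 (Mitsui below). The lungs were collected 56 days after the final instillation, and RNA came from randomly taken sections, so each value is a mixture of all lung cells. There were 25 animals in 5 groups of 5: control, NM-401 low (42.7 µg per mouse), NM-401 high (128 µg per mouse), Mitsui low (42.7 µg per mouse) and Mitsui high (128 µg per mouse). The nanotubes were suspended in mouse serum. Whether these amounts were given each time or summed over the 4 instillations is not stated in the labels. For the controls they name a vehicle in one place and olive oil by gavage in another, so the handling of the controls is not settled. They also give the sex as female in the sample labels and as male in the design text. Every array set lung RNA in the red dye (Cy5) against a universal mouse reference RNA in the green dye (Cy3), and each value below is a log2 ratio of lung over reference. In the control all 39 tested genes had a mean log2 ratio below 0, from -4.23 to -0.94, that is, lower in lung than in the reference.

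Most cells of an adult lung are not dividing. As background, a cell that enters the cycle first licenses its replication origins, with Cdc6 and Cdt1 loading the MCM helicase. E2F transcription factors switch on the enzymes that supply nucleotides and copy DNA, and later B-Myb and FoxM1 switch on the cyclins, kinases and spindle proteins of mitosis. The messages of these genes are low or absent in resting cells, and Mki67 and Top2a are widely used as markers of cycling cells.

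The promoters of these genes are shown first, because the members fall into S-phase and mitotic genes, and textbook knowledge ties each to its own promoter motifs. RefSeq promoter windows (build GRCm38.p6) run from 250 bases before to 50 after a start site, and 38 windows matched 35 of the 44 genes. Ccna2, Ccne2, Mcm4, Gins1, Gins2, Foxm1, Aurkb, Kif20a and Tpx2 had no entry. Both strands were searched for TTTGAA (the cell cycle genes homology region, CHR), for CCAAT (the CCAAT box), and for an E2F site written as TTTCCCGC, TTTCGCGC, TTTGCCGC or TTTGGCGC. None of the E2F words contains the CHR or CCAAT letters, but matches can overlap at their ends. The 200 bases upstream of the start are printed for 4 genes, in the direction of the gene, with matches in capitals. They were picked after the windows were searched, as an example of each arrangement: Mki67 and Cdc20 hold CHR and CCAAT matches, Uhrf1 an E2F match, and Ccnb1 CCAAT matches with no exact CHR match. The Mki67 sequence is at chr7:135716380-135716579 on the minus strand, Cdc20 at chr4:118437344-118437543 on the minus strand, Uhrf1 at chr17:56304113-56304312 on the plus strand and Ccnb1 at chr13:100786487-100786686 on the minus strand.
Mki67: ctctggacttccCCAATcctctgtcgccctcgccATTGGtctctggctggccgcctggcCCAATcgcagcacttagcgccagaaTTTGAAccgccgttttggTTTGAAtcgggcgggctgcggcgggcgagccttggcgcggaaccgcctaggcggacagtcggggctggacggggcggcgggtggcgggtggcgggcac
Cdc20: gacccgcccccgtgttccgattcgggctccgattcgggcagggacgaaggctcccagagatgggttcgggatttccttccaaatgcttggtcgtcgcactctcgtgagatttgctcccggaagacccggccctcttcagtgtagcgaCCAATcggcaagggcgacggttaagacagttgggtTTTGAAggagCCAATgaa
Uhrf1: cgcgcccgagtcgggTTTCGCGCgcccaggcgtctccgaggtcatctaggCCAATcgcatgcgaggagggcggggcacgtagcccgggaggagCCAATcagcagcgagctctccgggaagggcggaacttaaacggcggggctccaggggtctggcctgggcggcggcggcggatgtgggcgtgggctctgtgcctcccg
Ccnb1: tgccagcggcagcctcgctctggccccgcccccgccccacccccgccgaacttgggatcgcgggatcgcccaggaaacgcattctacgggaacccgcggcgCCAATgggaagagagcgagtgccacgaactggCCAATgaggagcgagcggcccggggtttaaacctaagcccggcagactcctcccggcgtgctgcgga

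Of the 38 member windows, 44.7% held a CHR match, 76.3% a CCAAT match, 42.1% both, and 21.1% an E2F match. Among all 32851 RefSeq windows of the same length the shares were 17.9%, 37.4%, 6.95% and 2.26%. The members were split by function, after their values were known. In the 20 windows of the mitotic genes 75.0% held CHR, 85.0% CCAAT, 70.0% both and 5.0% an E2F match. In the 18 windows of the S-phase genes the shares were 11.1%, 66.7%, 11.1% and 38.9%. A match of letters is a description of the window and not a measured binding site.

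**Figure D1:**
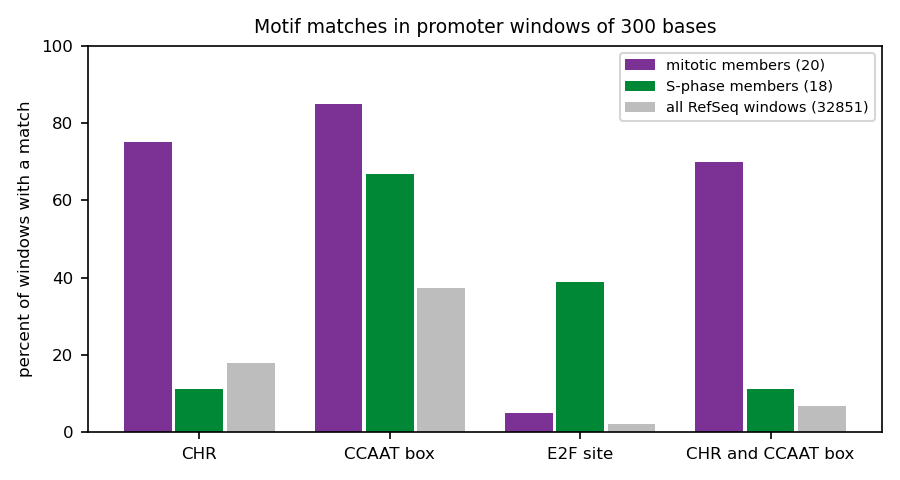
Share of promoter windows of 300 bases with at least 1 match on either strand (vertical axis, percent), for 20 windows of mitotic members, 18 windows of S-phase members and all 32851 RefSeq windows. CHR matches stand at 75.0% in the mitotic windows and 11.1% in the S-phase windows, and E2F matches at 5.0% and 38.9%.

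In each exposed group between 18 and 30 of the 39 tested cycle genes rose, and none was called lower. Where 4 values follow each other below, they stand for the low and high NM-401 groups and then the low and high Mitsui groups. A gene is called higher or lower when its Benjamini-Hochberg adjusted p from limma, taken over all 22950 features, is under 0.05. With NM-401 low 18 of the 39 tested members rose, with NM-401 high 30, with Mitsui low 28 and with Mitsui high 22. Over all features 8.95%, 18.4%, 10.6% and 12.7% were called higher in these 4 comparisons. As percentages the members' counts are 46.2%, 76.9%, 71.8% and 56.4%. The members called lower were 0 in each, against 8%, 16.4%, 10.4% and 11% of all features. The changes were modest. The median log2 change over the 39 members was 0.28, 0.45, 0.44 and 0.31, while the median over all features lay within 0.005 of 0 in each comparison. At least 1.5-fold was reached by 3, 13, 9 and 8 members, and the largest fold was 1.87, for Uhrf1 with Mitsui low. The 4 comparisons use the same 5 control animals, so they are not independent of each other. In whole lung, more cycling cells and more RNA per cell cannot be told apart.

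**Figure D2:**
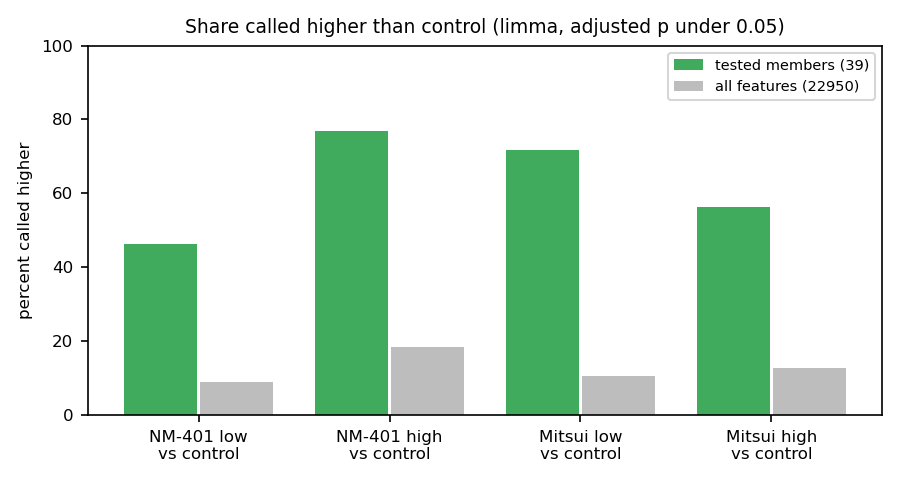
Percent of features called higher than control by limma at an adjusted p under 0.05 (vertical axis), for the 39 tested members and for all 22950 features, in each of the 4 exposures. The member bars stand at 46.2%, 76.9%, 71.8% and 56.4% and those of all features at 8.95%, 18.4%, 10.6% and 12.7%.

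Across the 4 exposures, 16 members were called in every one, 4 in 3, 9 in 2, 4 in 1 and 6 in none. The 16 were Ccna2, Ccnb1, Ccne1, Mcm2, Gins1, Gins2, Uhrf1, Rrm2, Tyms, Tk1, Aurka, Plk1, Birc5, Cenpe, Top2a and Mki67. The 6 that were called nowhere were Cdc45, Mcm4, Mcm6, Rrm1, Kif11 and Kif2c. Calls across exposures were not counted over all features, and the shared controls let calls recur for any feature. No more than 8.95% of all features, the share higher with NM-401 low, can have been called higher in all 4. All 5 exposed animals lay above all 5 controls in 11 members with NM-401 low, 26 with NM-401 high, 27 with Mitsui low and 15 with Mitsui high, against 6.49%, 12%, 8.45% and 8.21% of all features. These counts depended on the normalisation within arrays. With each array only centred on its median in place of loess, 0 members were called in each exposure. Over all features 0.27%, 4.64%, 0.322% and 0.527% were then called in either direction. The members' median standard error was 0.36, against 0.12 with loess. Of the 39 estimates 29, 39, 33 and 33 were above 0, against 38 in each exposure with loess. Median centring also moved the median of all features, to -0.109, 0.166, -0.144 and -0.126.

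**Figure D3:**
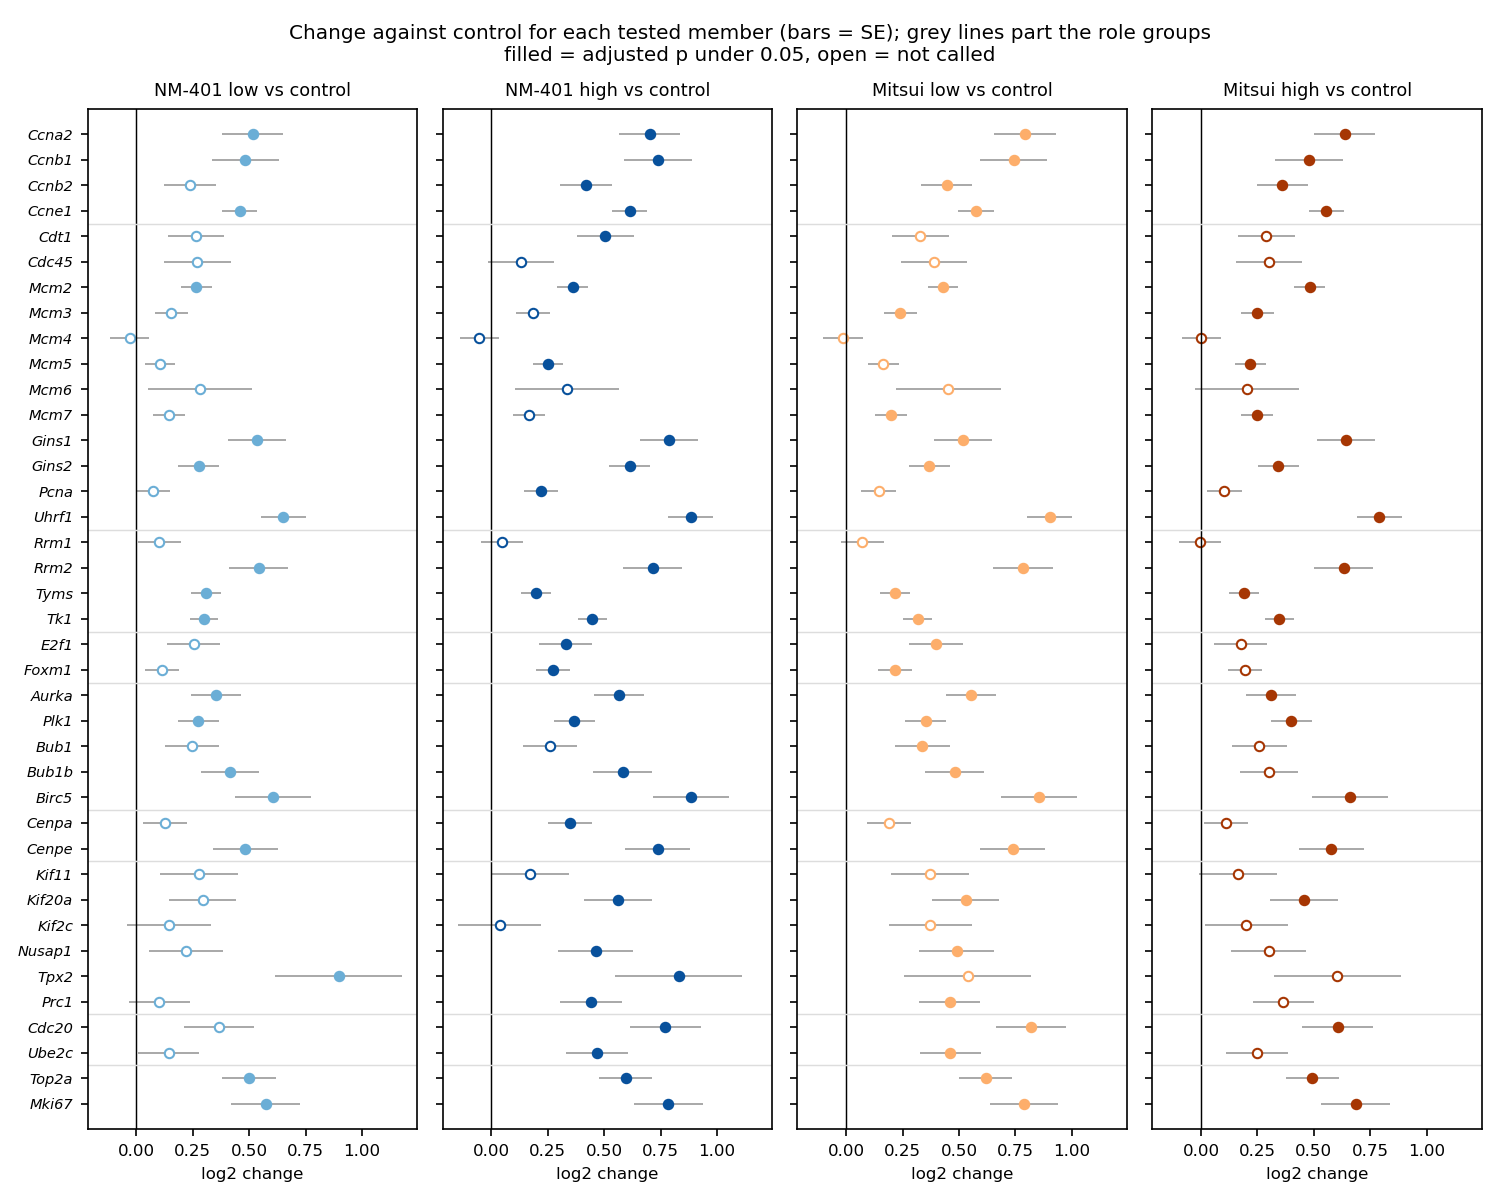
Log2 change against control (horizontal axis) for the 39 tested members in role order, 1 panel for each exposure. Points are limma estimates with standard errors from 5 animals per group, filled where the adjusted p is under 0.05. Nearly all points lie to the right of 0, with Mcm4 and Rrm1 beside it in every panel.

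Mki67, the Ki-67 protein that coats mitotic chromosomes, rose in every exposure. In controls 1 to 5 its log2 ratio was -3.65, -3.85, -4.16, -3.66 and -3.70. In NM-401 animals 1 to 5 it was -3.13, -3.29, -3.05, -3.59 and -3.09 at the low dose and -2.67, -3.28, -3.12, -3.28 and -2.74 at the high dose. In Mitsui lungs Mki67 was -3.12, -3.02, -2.98, -2.77 and -3.19 at the low dose and -3.34, -3.58, -3.04, -2.72 and -2.93 at the high dose. All 20 exposed animals lay above the highest control, control 1. The fold change was 1.49-fold (95% interval 1.2 to 1.85) with NM-401 low and 1.72-fold (95% interval 1.39 to 2.14) with NM-401 high. It was 1.73-fold (95% interval 1.39 to 2.15) with Mitsui low and 1.61-fold (95% interval 1.29 to 2) with Mitsui high. The adjusted p was 0.011, 0.000257, 0.000618 and 0.00187. A second Mki67 probe that was not used gave changes of 0.55, 0.78, 0.80 and 0.65.

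Top2a, the topoisomerase that untangles sister chromosomes, also rose in every exposure. Controls 1 to 5 read -4.10, -3.90, -4.30, -4.31 and -4.07. Lungs with NM-401 read -3.63, -3.82, -3.43, -3.83 and -3.47 at the low dose and -3.46, -3.55, -3.49, -3.73 and -3.46 at the high dose. Lungs with Mitsui read -3.63, -3.49, -3.41, -3.37 and -3.68 at the low dose and -3.66, -4.13, -3.29, -3.54 and -3.59 at the high dose. Groups did not overlap with the control except in Mitsui high, where animal 2 sat among the controls. The log2 changes were 0.50 ± 0.12 (SE), 0.60 ± 0.12, 0.62 ± 0.12 and 0.49 ± 0.12, with adjusted p of 0.00527, 0.000351, 0.000609 and 0.0036. Mki67 and Top2a kept all their calls when any 1 of the 25 animals was left out.

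**Figure D4:**
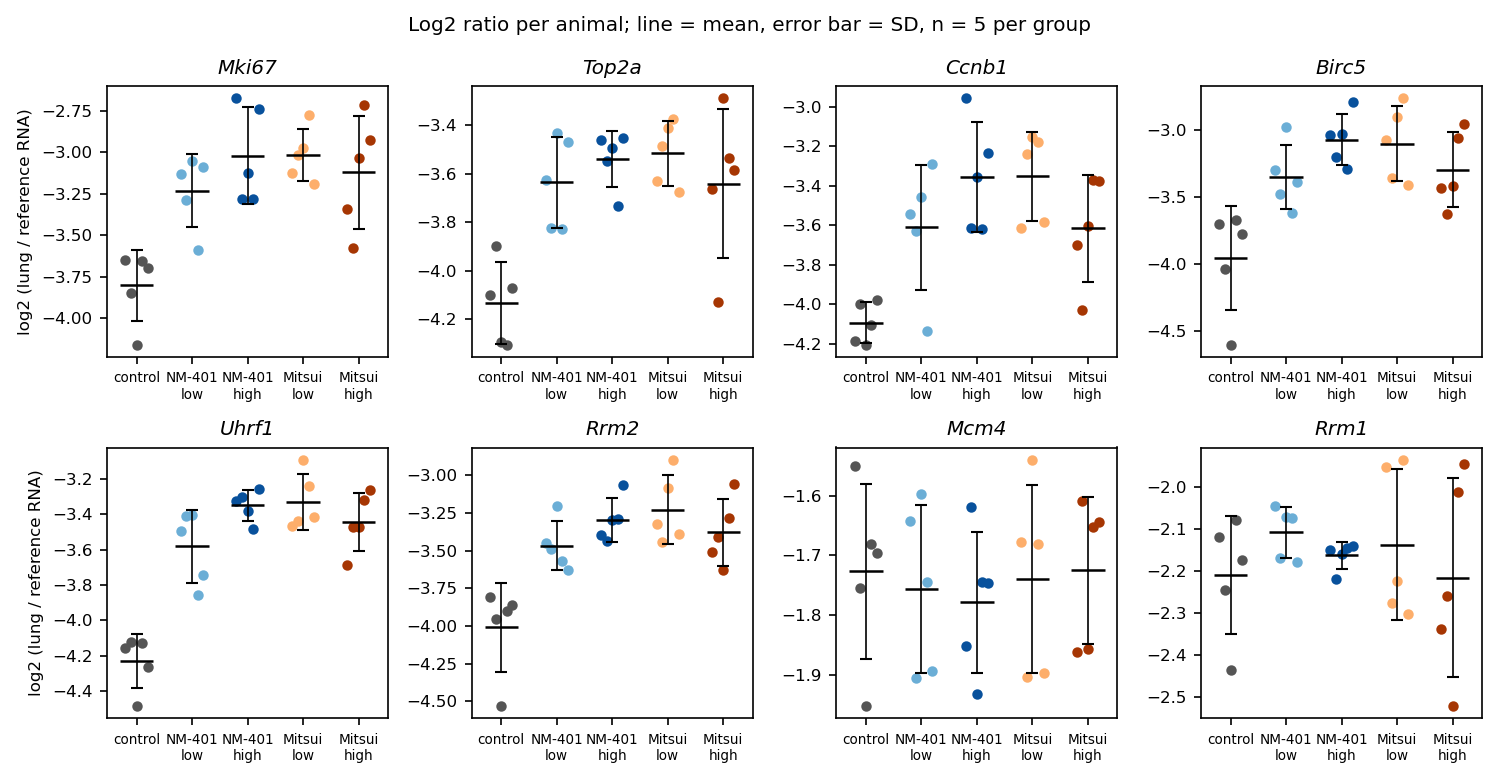
Log2 ratio of lung over reference RNA (vertical axis, a separate scale in each panel) for 8 members in every animal of the 5 groups, with the mean and SD of 5 animals. In Mki67, Birc5, Uhrf1 and Rrm2 every exposed animal lies above every control, while in Mcm4 and Rrm1 the groups lie on top of each other.

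Among the cyclins, which switch on the cycle kinases, the 4 tested genes were Ccna2, Ccnb1, Ccnb2 and Ccne1. All 4 rose with NM-401 high and with both Mitsui doses, and 3 of 4 with NM-401 low. Cyclin B1, the partner of Cdk1 at entry into mitosis, read -4.19, -4.00, -4.20, -4.10 and -3.98 in controls 1 to 5. In NM-401 lungs Ccnb1 read -3.54, -3.63, -3.46, -4.13 and -3.29 at the low dose and -2.96, -3.61, -3.35, -3.62 and -3.23 at the high dose. In Mitsui lungs Ccnb1 read -3.61, -3.24, -3.15, -3.18 and -3.58 at the low dose and -3.70, -4.03, -3.60, -3.37 and -3.38 at the high dose. NM-401 low animal 4 and Mitsui high animal 2 lay among the controls, and all other exposed animals lay above them. The changes were 0.48 ± 0.15, 0.74 ± 0.15, 0.74 ± 0.15 and 0.48 ± 0.15 (adjusted p = 0.0278, 0.000422, 0.000969 and 0.022). The Ccnb1 call with NM-401 low was lost when control 1, 3 or 4 or NM-401 low animal 1, 2, 3 or 5 was left out, at changes of 0.40 to 0.49, and with the authors' deposited values, at 0.43. The call with Mitsui high was lost without Mitsui high animal 4 or 5, at 0.42 each, and with the mean of the Ccnb1 probes, at 0.31. The other 2 Ccnb1 probes gave smaller changes, from 0.23 to 0.40 over the 4 exposures.

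Cyclin B2 read -2.84, -3.06, -3.23, -2.85 and -2.86 in the controls. In NM-401 lungs Ccnb2 read -2.66, -2.80, -2.60, -2.85 and -2.73 at the low dose and -2.44, -2.71, -2.55, -2.71 and -2.33 at the high dose. In Mitsui lungs Ccnb2 read -2.82, -2.56, -2.34, -2.26 and -2.63 at the low dose and -2.70, -2.95, -2.36, -2.41 and -2.60 at the high dose. All animals of NM-401 high and Mitsui low lay above the controls, and 4 of 5 in the other 2 exposed groups. The Ccnb2 changes were 0.24 ± 0.11 (adjusted p = 0.166), 0.42 ± 0.11 (0.006), 0.44 ± 0.11 (0.00698) and 0.36 ± 0.11 (0.024). Without control 2 or 3, or Mitsui high animal 3 or 4, the Ccnb2 call with Mitsui high was lost, at changes of 0.30 to 0.34. Cyclin E1, which acts at the start of S phase, had the smallest errors of the cyclins. Ccne1 changed by 0.46 ± 0.079, 0.61 ± 0.079, 0.58 ± 0.079 and 0.56 ± 0.079, with no overlap with the controls in any exposure. Cyclin A2, which acts in S phase and early mitosis, changed by 0.52 ± 0.14, 0.70 ± 0.14, 0.79 ± 0.14 and 0.64 ± 0.14.

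The genes of origin licensing and the replication fork were mixed. Of the 12 tested, 4 rose with NM-401 low, 7 with NM-401 high, 6 with Mitsui low and 7 with Mitsui high. Uhrf1, which reads hemimethylated DNA behind the fork, had the smallest adjusted p of all members. Controls 1 to 5 read -4.16, -4.12, -4.49, -4.13 and -4.26. In NM-401 lungs Uhrf1 was -3.49, -3.41, -3.40, -3.86 and -3.74 at the low dose and -3.32, -3.30, -3.38, -3.48 and -3.25 at the high dose. In Mitsui lungs Uhrf1 was -3.46, -3.44, -3.09, -3.24 and -3.42 at the low dose and -3.69, -3.47, -3.47, -3.32 and -3.26 at the high dose. Every exposed animal lay above the highest control. Uhrf1 was higher by 1.57-fold (95% interval 1.36 to 1.81), 1.84-fold (95% interval 1.6 to 2.13), 1.87-fold (95% interval 1.62 to 2.15) and 1.73-fold (95% interval 1.5 to 1.99), at adjusted p of 0.000103, 3.1e-07, 1.29e-06 and 4.96e-06. Its 4 calls held with any 1 animal left out.

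The MCM2 to MCM7 proteins form 1 helicase ring that unwinds DNA, and their messages did not all pass in the same exposures. Of these 6 genes 1, 2, 3 and 4 were called in the 4 exposures. Mcm2 rose in all of them, by 0.27 ± 0.068, 0.36 ± 0.068, 0.43 ± 0.068 and 0.48 ± 0.068. Mcm3 rose with Mitsui low (0.24 ± 0.074) and Mitsui high (0.25 ± 0.074), and so did Mcm7 (0.20 ± 0.071 and 0.25 ± 0.071). With NM-401 low and high, not called, Mcm3 read 0.16 and 0.19 and Mcm7 0.14 and 0.17. Mcm5 rose with NM-401 high (0.25 ± 0.068) and Mitsui high (0.22 ± 0.068), and read 0.10 with NM-401 low and 0.16 with Mitsui low. Called and uncalled estimates of Mcm3, Mcm5 and Mcm7 thus lay close together, and differences between these genes were not tested. Mcm4 was called in none. Its ratio was -1.55, -1.76, -1.95, -1.68 and -1.70 in controls 1 to 5. In NM-401 lungs Mcm4 was -1.64, -1.91, -1.60, -1.75 and -1.89 at the low dose and -1.85, -1.62, -1.93, -1.74 and -1.75 at the high dose. In Mitsui lungs Mcm4 was -1.68, -1.90, -1.54, -1.68 and -1.90 at the low dose and -1.86, -1.61, -1.86, -1.65 and -1.64 at the high dose. Mitsui low animal 3, at the upper end of its group, was the only exposed animal above the highest control, and it was so by a narrow margin. The 95% intervals of the Mcm4 change were -0.21 to 0.15, -0.23 to 0.13, -0.19 to 0.17 and -0.18 to 0.18 on the log2 scale, so a rise as large as that of Uhrf1 lay outside each of them. Mcm6 was also not called, but its errors were wide, at 0.28 ± 0.23, 0.34 ± 0.23, 0.45 ± 0.23 and 0.20 ± 0.23.

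The GINS proteins join MCM to form the active helicase, and both tested members rose in all 4 exposures. Gins1 changed by 0.53 ± 0.13, 0.79 ± 0.13, 0.52 ± 0.13 and 0.64 ± 0.13, and Gins2 by 0.28 ± 0.091, 0.61 ± 0.091, 0.37 ± 0.091 and 0.34 ± 0.091. The licensing factor Cdt1 was called with NM-401 high (0.51 ± 0.13), while the other 3 exposures gave 0.26 ± 0.13, 0.33 ± 0.13 and 0.29 ± 0.13. Pcna, the sliding clamp of the polymerases, likewise passed in NM-401 high (0.22 ± 0.076) and read 0.074 ± 0.076, 0.14 ± 0.076 and 0.10 ± 0.076 elsewhere. Cdc45, the third part of the active helicase, was not called, at 0.27 ± 0.15, 0.13 ± 0.15, 0.39 ± 0.15 and 0.30 ± 0.15.

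Among the genes that supply nucleotides for DNA, Rrm2, Tyms and Tk1 rose in all 4 exposures and Rrm1 in none. Rrm1 and Rrm2 encode the large and small subunits of the same enzyme, ribonucleotide reductase. Rrm2 read -3.81, -3.95, -4.53, -3.90 and -3.86 in controls 1 to 5. In NM-401 lungs Rrm2 read -3.45, -3.49, -3.21, -3.57 and -3.63 at the low dose and -3.39, -3.44, -3.30, -3.29 and -3.06 at the high dose. In Mitsui lungs Rrm2 read -3.32, -3.44, -3.09, -2.90 and -3.39 at the low dose and -3.51, -3.41, -3.63, -3.28 and -3.06 at the high dose. Control 3 stood below the other controls, and every exposed animal lay above the highest control. The Rrm2 fold change was 1.46-fold (95% interval 1.21 to 1.76), 1.64-fold (95% interval 1.36 to 1.98), 1.72-fold (95% interval 1.43 to 2.08) and 1.55-fold (95% interval 1.28 to 1.87), with adjusted p of 0.00599, 0.000146, 0.000164 and 0.00107. These calls held with any 1 animal left out, control 3 included.

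Rrm1 read -2.12, -2.25, -2.43, -2.08 and -2.17 in the controls. In NM-401 lungs Rrm1 read -2.05, -2.17, -2.07, -2.08 and -2.18 at the low dose and -2.15, -2.22, -2.16, -2.15 and -2.14 at the high dose. In Mitsui lungs Rrm1 read -1.95, -2.28, -2.22, -1.94 and -2.30 at the low dose and -2.34, -2.26, -2.52, -2.01 and -1.95 at the high dose. All groups overlapped, and the widest spread was that of Mitsui high. The Rrm1 changes were 0.10 ± 0.094, 0.047 ± 0.094, 0.072 ± 0.094 and -0.0055 ± 0.094. Their 95% intervals were -0.093 to 0.30, -0.15 to 0.24, -0.12 to 0.27 and -0.20 to 0.19. Thymidine kinase Tk1 changed by 0.30 ± 0.064, 0.45 ± 0.064, 0.32 ± 0.064 and 0.35 ± 0.064, and thymidylate synthase Tyms by 0.31 ± 0.067, 0.20 ± 0.067, 0.22 ± 0.067 and 0.19 ± 0.067.

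Both transcription factors of the list, E2f1 of the S-phase program and Foxm1 of the mitotic program, rose with NM-401 high and Mitsui low and were not called in the other 2 exposures. E2f1 read -1.33, -1.98, -2.04, -1.41 and -1.46 in controls 1 to 5, with controls 2 and 3 below the rest. In NM-401 lungs E2f1 read -1.20, -1.44, -1.25, -1.38 and -1.69 at the low dose and -1.24, -1.42, -1.28, -1.40 and -1.23 at the high dose. In Mitsui lungs E2f1 read -1.32, -1.25, -1.12, -1.24 and -1.30 at the low dose and -1.39, -1.37, -1.68, -1.55 and -1.36 at the high dose. Mitsui low was the only exposed group with all 5 animals above the controls, and Mitsui high had none above the highest of them. The E2f1 changes were 0.25 ± 0.12, 0.33 ± 0.12, 0.40 ± 0.12 and 0.18 ± 0.12 (adjusted p = 0.149, 0.0316, 0.017 and 0.306). Both E2f1 calls were lost without control 2 or control 3, with changes of 0.23 to 0.32. The NM-401 high call was also lost without NM-401 high animal 1, 3 or 5, at 0.31, 0.32 and 0.31, with Feature Extraction ratios, at 0.32, and on Cy5 alone, at 0.14. Cy5 alone here means red-channel values taken after loess, which still depend on the green channel.

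Foxm1 read -2.83, -3.01, -2.99, -2.72 and -2.72 in the controls. In NM-401 lungs Foxm1 read -2.82, -2.80, -2.57, -2.84 and -2.68 at the low dose and -2.50, -2.71, -2.54, -2.69 and -2.47 at the high dose. In Mitsui lungs Foxm1 read -2.71, -2.78, -2.57, -2.52 and -2.63 at the low dose and -2.82, -2.63, -2.69, -2.56 and -2.61 at the high dose. Every NM-401 high animal lay above the controls, as did 4 of 5 in each Mitsui group and 2 of 5 in NM-401 low. The Foxm1 changes were 0.11 ± 0.076, 0.27 ± 0.076, 0.22 ± 0.076 and 0.20 ± 0.076 (adjusted p = 0.341, 0.00631, 0.0438 and 0.0633). The Foxm1 call with Mitsui low was lost without control 1, 2 or 3 or Mitsui low animal 3, 4 or 5, at 0.18 to 0.22, and under 8 of 15 other processing choices, at 0.0055 to 0.26. The Foxm1 call with NM-401 high was lost on Cy5 alone, at 0.20, and under median centring. A slide block gave a call with Mitsui high, at 0.20. A call with Mitsui high was also gained without control 4, control 5 or Mitsui high animal 1, at 0.23 each. A dimmer Foxm1 probe that was not used gave 0.032, 0.13, 0.092 and 0.058.

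The mitotic kinases and checkpoint genes rose in 4, 4, 5 and 3 of 5 tested members in the low and high NM-401 and the low and high Mitsui groups. Birc5, or survivin, the chromosomal passenger protein that guides Aurora B, had the largest changes of the 5. Its ratio was -3.70, -4.04, -4.60, -3.68 and -3.78 in controls 1 to 5, with control 3 lowest. In NM-401 lungs Birc5 was -3.30, -3.48, -2.98, -3.62 and -3.39 at the low dose and -3.04, -3.20, -3.03, -3.29 and -2.79 at the high dose. In Mitsui lungs Birc5 was -3.07, -3.36, -2.91, -2.77 and -3.41 at the low dose and -3.43, -3.63, -3.42, -3.06 and -2.96 at the high dose. All 20 exposed animals lay above all controls. The Birc5 fold change was 1.52-fold (95% interval 1.2 to 1.94), 1.85-fold (95% interval 1.45 to 2.35), 1.81-fold (95% interval 1.42 to 2.3) and 1.58-fold (95% interval 1.24 to 2.01), at adjusted p of 0.0149, 0.000215, 0.00076 and 0.00555. Without control 3 the Birc5 change with NM-401 low was 0.45 and its adjusted p 0.0505. A second Birc5 probe, above background in all animals, gave smaller changes of 0.33, 0.53, 0.52 and 0.42.

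The spindle pole kinase Aurka and the mitotic kinase Plk1 rose in all 4 exposures. Aurka changed by 0.35 ± 0.11, 0.56 ± 0.11, 0.55 ± 0.11 and 0.31 ± 0.11, and Plk1 by 0.28 ± 0.091, 0.37 ± 0.091, 0.35 ± 0.091 and 0.40 ± 0.091. Bub1b, the BubR1 protein of the spindle checkpoint, rose in 3 exposures and read 0.30 ± 0.13 in Mitsui high. Bub1, its partner kinase, was near the threshold. It read -3.86, -3.66, -3.90, -3.94 and -3.71 in controls 1 to 5. In NM-401 lungs Bub1 read -3.45, -3.64, -3.71, -3.79 and -3.24 at the low dose and -3.35, -3.53, -3.52, -3.93 and -3.43 at the high dose. In Mitsui lungs Bub1 read -3.62, -3.32, -3.49, -3.33 and -3.61 at the low dose and -3.63, -3.94, -3.35, -3.54 and -3.31 at the high dose. Mitsui low lay above all controls, and 3 or 4 of 5 animals did so in the other groups. The Bub1 changes were 0.25 ± 0.12, 0.26 ± 0.12, 0.34 ± 0.12 and 0.26 ± 0.12 (adjusted p = 0.176, 0.103, 0.0495 and 0.129). The single Bub1 call, with Mitsui low, was lost when any of 16 animals was left out, at changes of 0.30 to 0.37: controls 1, 3, 4 and 5, NM-401 low animals 1, 2 and 3, NM-401 high animals 2, 3 and 5, Mitsui low animals 2, 3, 4 and 5, and Mitsui high animals 1 and 4. It was also lost under 10 of 15 other processing choices, at 0.16 to 0.50. With NM-401 high 3 of those choices gave a Bub1 call, at 0.31 to 0.68, and with NM-401 low an offset of 10 gave one, at 0.38. Calls were gained without NM-401 high animal 4 (0.35 with NM-401 high) and without Mitsui high animal 2 (0.36 with Mitsui high).

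Of the centromere proteins, Cenpe, the motor that carries chromosomes to the spindle equator, rose in all 4 exposures. It read -4.02, -4.15, -4.58, -4.01 and -4.03 in controls 1 to 5, with control 3 lowest. In NM-401 lungs Cenpe read -3.60, -3.77, -3.32, -4.08 and -3.60 at the low dose and -3.47, -3.67, -3.27, -3.49 and -3.21 at the high dose. In Mitsui lungs Cenpe read -3.45, -3.72, -3.12, -3.24 and -3.58 at the low dose and -3.61, -3.82, -3.79, -3.28 and -3.41 at the high dose. NM-401 low animal 4 alone overlapped with the controls. The Cenpe changes were 0.48 ± 0.14, 0.74 ± 0.14, 0.74 ± 0.14 and 0.58 ± 0.14 (adjusted p = 0.0218, 0.000281, 0.000691 and 0.0046). Without control 3 or NM-401 low animal 3 the Cenpe call with NM-401 low was lost, at 0.38 and 0.39.

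Cenpa, the histone H3 variant that marks centromeres, was called with NM-401 high. It read -3.17, -3.33, -3.45, -3.35 and -3.13 in the controls. In NM-401 lungs Cenpa read -3.20, -3.56, -2.91, -3.17 and -2.96 at the low dose and -2.97, -3.06, -2.79, -3.02 and -2.82 at the high dose. In Mitsui lungs Cenpa read -3.03, -3.16, -2.99, -3.17 and -3.13 at the low dose and -3.29, -3.30, -3.19, -2.99 and -3.12 at the high dose. NM-401 high lay above all controls and the other groups overlapped with them. The Cenpa changes were 0.13 ± 0.10, 0.35 ± 0.10, 0.19 ± 0.10 and 0.11 ± 0.10. The difference between NM-401 high and low was 0.22 ± 0.10 (adjusted p = 0.211), and that between Mitsui high and NM-401 high -0.24 ± 0.10 (adjusted p = 0.199), so neither passed. On Cy5 alone the Cenpa change with NM-401 high was 0.22 and not called.

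Of the 6 spindle motors and microtubule proteins, 1, 4, 3 and 1 rose in the low and high NM-401 and the low and high Mitsui groups. Kif20a, a motor of late mitosis, rose by 0.56 ± 0.15 with NM-401 high, by 0.53 ± 0.15 with Mitsui low and by 0.46 ± 0.15 with Mitsui high. The microtubule bundlers Nusap1 and Prc1 both rose with NM-401 high and Mitsui low. Nusap1 changed there by 0.46 ± 0.16 and 0.49 ± 0.16, and Prc1 by 0.44 ± 0.14 and 0.46 ± 0.14. The spindle motor Kif11 was not called, at 0.28 ± 0.17, 0.17 ± 0.17, 0.37 ± 0.17 and 0.16 ± 0.17.

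Kif2c, a motor that takes microtubules apart, was dim, with 2 of 5 controls above background. Its ratio was -3.00, -2.98, -2.73, -3.28 and -3.15 in the controls. In NM-401 lungs Kif2c was -2.68, -3.17, -3.42, -2.84 and -2.30 at the low dose and -2.66, -3.09, -2.91, -3.36 and -2.94 at the high dose. In Mitsui lungs Kif2c was -2.81, -2.34, -2.92, -2.55 and -2.65 at the low dose and -3.13, -3.24, -2.27, -2.76 and -2.73 at the high dose. Every group overlapped with the controls. The Kif2c changes were 0.15 ± 0.19, 0.037 ± 0.19, 0.37 ± 0.19 and 0.20 ± 0.19, and none was called.

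Tpx2, which activates Aurora A on the spindle, depended on 1 animal. Controls 1 to 5 read -4.15, -4.02, -4.06, -4.26 and -4.22. In NM-401 lungs Tpx2 read -3.77, -3.73, -3.41, -3.89 and -1.42 at the low dose and -3.16, -3.56, -3.27, -3.41 and -3.15 at the high dose. In Mitsui lungs Tpx2 read -3.68, -3.56, -3.67, -3.44 and -3.67 at the low dose and -3.75, -3.67, -3.57, -3.39 and -3.30 at the high dose. All 20 exposed animals lay above all controls, and NM-401 low animal 5 stood far above every other animal. The Tpx2 changes were 0.90 ± 0.28, 0.83 ± 0.28, 0.54 ± 0.28 and 0.60 ± 0.28 (adjusted p = 0.0293, 0.024, 0.19 and 0.128). Without NM-401 low animal 5 the changes were 0.44, 0.83, 0.54 and 0.60, and all 4 were called (adjusted p = 0.00702, 8.28e-07, 0.000413 and 0.000117). With that animal kept, the call with NM-401 low was lost without control 4 or 5 (0.87 and 0.88) and that with NM-401 high without NM-401 high animal 5 (0.79) and with the authors' deposited values (0.77). Another Tpx2 probe, below the filter, did not show the high value of that animal and gave changes of 0.19, -0.031, 0.10 and 0.036.

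Both tested genes of the anaphase-promoting complex, which marks cyclins and securin for destruction, rose with NM-401 high and Mitsui low. Cdc20, its activator, read -3.33, -3.51, -3.69, -3.15 and -3.28 in controls 1 to 5. In NM-401 lungs Cdc20 read -3.00, -3.14, -2.72, -3.35 and -2.92 at the low dose and -2.19, -3.11, -2.50, -2.92 and -2.39 at the high dose. In Mitsui lungs Cdc20 read -2.78, -2.66, -2.36, -2.42 and -2.65 at the low dose and -3.04, -3.03, -2.79, -2.46 and -2.61 at the high dose. All animals of the last 3 groups lay above the controls, and 4 of 5 did so with NM-401 low. The Cdc20 changes were 0.37 ± 0.16, 0.77 ± 0.16, 0.82 ± 0.16 and 0.61 ± 0.16 (adjusted p = 0.115, 0.000416, 0.000582 and 0.00608).

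Ube2c, the ubiquitin-conjugating enzyme of the complex, read -3.87, -3.80, -3.80, -3.40 and -3.57 in the controls. In NM-401 lungs Ube2c read -3.57, -3.82, -3.18, -3.95 and -3.22 at the low dose and -2.90, -3.52, -3.27, -3.41 and -3.01 at the high dose. In Mitsui lungs Ube2c read -3.30, -3.25, -3.22, -3.23 and -3.13 at the low dose and -3.66, -3.48, -3.29, -3.27 and -3.50 at the high dose. Mitsui low lay above all controls, while the other groups overlapped with them. The Ube2c changes were 0.14 ± 0.14, 0.47 ± 0.14, 0.46 ± 0.14 and 0.25 ± 0.14 (adjusted p = 0.537, 0.00916, 0.0169 and 0.203). A second Ube2c probe gave 0.17, 0.56, 0.45 and 0.31.

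By the functional split, the 21 tested mitotic members had 10, 18, 17 and 11 calls in the low and high NM-401 and the low and high Mitsui groups, all higher. Their median changes were 0.29, 0.56, 0.49 and 0.36. The 18 tested S-phase members had 8, 12, 11 and 11 calls, also all higher, with medians of 0.27, 0.33, 0.35 and 0.27. No test of the difference between the classes was run.

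Animals of a group differed in how far the whole set was raised. Averaged over the 39 members and set against the control mean, animals 1 to 5 stood at 0.35, 0.23, 0.44, 0.13 and 0.43 in NM-401 low and at 0.57, 0.36, 0.46, 0.29 and 0.58 in NM-401 high. The Mitsui animals stood at 0.36, 0.44, 0.54, 0.54 and 0.37 at the low dose and at 0.27, 0.18, 0.41, 0.49 and 0.47 at the high dose. The controls lay between -0.16 (control 3) and 0.095 (control 5), so the means of all 20 exposed animals were above those of all controls. The group means were 0.32 ± 0.13 (SD, n = 5), 0.46 ± 0.13, 0.45 ± 0.087 and 0.36 ± 0.14. The least raised animals, NM-401 low animal 4 and Mitsui high animal 2, had 15 and 17 members above the highest control, while NM-401 high animals 1 and 5, with the highest means, had 37 and 33.

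The arrays lay on 4 slides, and each group was spread over them, except that NM-401 high had none on slide 2 and Mitsui low only a repeat array on slide 4. Mitsui low animal 5 was run on slides 3 and 4, and its 2 arrays were averaged. Within slides, which hold 1 or 2 animals of a group, 25 to 39 members were higher with NM-401 low and 36 to 39 with NM-401 high. With Mitsui low all 39 were higher on slides 1, 2 and 3, and with Mitsui high 30 to 37. The Mitsui low comparison on slide 3 used the averaged arrays of animal 5, which include its array on slide 4. The smallest within-slide medians were 0.054 for NM-401 low on slide 1, with 25 members higher, and 0.083 for Mitsui high on slide 4, with 30 higher. Across all features 44.9% to 52.3% were higher within a slide. The share of probes above background in the lung channel was 45.8% to 62.1%, and the lowest correlation between any pair of arrays was 0.874. All 10 alveolar type 2 markers and 9 of 10 markers each of alveolar type 1 cells and airway epithelium passed the filter on dim probes.

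The dose comparison asks whether 128 µg differed from 42.7 µg. Between NM-401 high and low, 1 of 39 members was called, against 3.84% of all features. That gene was Gins2, at 0.34 ± 0.091 (adjusted p = 0.0376), and its ranges at the 2 doses overlapped. Gins2 was not called when NM-401 low animal 1, 2, 4 or 5 or NM-401 high animal 2, 3 or 5 was left out, nor under 5 other processing choices. Without NM-401 low animal 5 the member called was Tpx2 (0.39), and without NM-401 high animal 2 it was Cdc20 (0.53). The share of all features was 0.967% and 0.797% without NM-401 low animals 1 and 4, and 1.31% and 0.911% without NM-401 high animals 3 and 5. It was highest, at 5.37%, without NM-401 high animal 2. Estimates were above 0 in 32 of 39 members, with a median of 0.16. Cdc20 differed by 0.41 ± 0.16 (interval 0.082 to 0.73, adjusted p = 0.153) and Mki67 by 0.21 ± 0.15 (interval -0.10 to 0.53). Between Mitsui high and low, 0 of 39 members and 0% of all features were called by limma, with 1 member and 1244 features at an unadjusted p under 0.05. Here 30 of 39 estimates were below 0, with a median of -0.084. Mki67 differed by -0.10 ± 0.15 (interval -0.42 to 0.21) and Top2a by -0.12 ± 0.12 (interval -0.37 to 0.12).

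The nanotubes were then compared at equal dose. At the low dose 0 of 39 members and 0% of all features were called between Mitsui and NM-401 by limma, with 5 members and 1287 features at an unadjusted p under 0.05. Estimates were above 0, meaning higher with Mitsui, in 35 of 39 members, with a median of 0.12. Cdc20 had the smallest p, at 0.45 ± 0.16 (interval 0.13 to 0.77, adjusted p = 0.687). At the high dose 0 of 39 members were called against 0.793% of all features, with 4 members and 3955 features (17.2%) at an unadjusted p under 0.05. There 32 of 39 estimates were below 0, with a median of -0.10. Mki67 differed by 0.22 ± 0.15 at the low dose (interval -0.10 to 0.53) and by -0.10 ± 0.15 at the high dose (interval -0.41 to 0.21). When Mitsui high animal 5 was left out, Gins2 was called between the materials at the high dose, at -0.33. The share of all features there was 3.99% without NM-401 high animal 2 and 3.92% without Mitsui high animal 5. It was 0.362%, 0.0392% and 0.113% without NM-401 high animals 1, 3 and 5, and 0.0261%, 0.0305% and 0.192% without Mitsui high animals 2, 3 and 4. Without Mitsui low animals 4 and 5 it was 0.523% and 0.497%. The difference between the dose steps, Mitsui minus NM-401, was called in 0 of 39 members and in 0.0305% of all features. With 1 animal left out that share was 0.00436% to 0.858%, highest without Mitsui high animal 5. At an unadjusted p under 0.05 there were 8 members and 2925 features (12.7%). The difference was below 0 in 34 of 39 members, with a median of -0.26, and for Cdc20 it was -0.62 ± 0.22 (adjusted p = 0.236). Over the 39 members the 95% intervals of these dose and material differences reached down to -0.94 and up to 0.77, and those of the dose step from -1.07 to 0.95. The bounds -0.94 and 0.95 belong to Tpx2, whose value in NM-401 low animal 5 stood far above the others. The median standard error of the members was 0.12, and 0.17 for the dose step. A value that did not pass therefore does not show that doses or materials acted alike.

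Cycle genes outside the list were read from further lists. For comparison, 8.95%, 18.4%, 10.6% and 12.7% of all features were called higher and 8%, 16.4%, 10.4% and 11% lower. Of 41 tested other mitotic genes, 12, 22, 21 and 17 rose in the low and high NM-401 and the low and high Mitsui groups and none fell, with medians of 0.23, 0.36, 0.34 and 0.26. Spc25, a kinetochore protein, changed most, by 0.78 ± 0.14, 1.15 ± 0.14, 1.12 ± 0.14 and 0.96 ± 0.14. Cdca5, or sororin, which protects sister chromatid cohesion, rose by 0.50 ± 0.10, 0.69 ± 0.10, 0.62 ± 0.10 and 0.53 ± 0.10. Espl1, the separase that cuts cohesin, rose by 0.66 ± 0.10 with NM-401 high. Of 36 tested other S-phase genes, 10, 15, 11 and 12 rose and 0, 2, 1 and 1 fell, with medians of 0.11, 0.15, 0.085 and 0.11. The replication initiator Mcm10 rose by 0.49 ± 0.10, 0.65 ± 0.10, 0.57 ± 0.10 and 0.54 ± 0.10. The exonuclease Exo1 rose by 0.51 ± 0.12, 0.58 ± 0.12, 0.60 ± 0.12 and 0.59 ± 0.12. Tmpo, a nuclear lamina protein, fell, at -0.31 ± 0.086 with NM-401 high, -0.28 ± 0.086 with Mitsui low and -0.33 ± 0.086 with Mitsui high.

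The regulators of G1, which decide on entry into the cycle, did not share a direction. Of 22 tested, 2, 6, 4 and 7 rose and 1, 4, 2 and 4 fell, and the medians were 0.018, 0.033, 0.029 and 0.058. The shares over all features were 8.95%, 18.4%, 10.6% and 12.7% higher and 8%, 16.4%, 10.4% and 11% lower. Cdkn1a, the p21 inhibitor of cyclin-dependent kinases, rose in all 4 exposures, by 0.48 ± 0.16, 0.91 ± 0.16, 0.70 ± 0.16 and 0.54 ± 0.16 (adjusted p = 0.0373, 7.99e-05, 0.00246 and 0.0144). Cdkn2c, the p18 inhibitor of Cdk4 and Cdk6, fell in all 4, with changes of -0.44 ± 0.084, -0.68 ± 0.084, -0.53 ± 0.084 and -0.47 ± 0.084. Ccnd1, or cyclin D1, rose with Mitsui low (0.41 ± 0.090) and Mitsui high (0.30 ± 0.090) and read 0.10 ± 0.090 and 0.044 ± 0.090 with NM-401 low and high. Myc rose with NM-401 high (0.51 ± 0.087) and read 0.24 ± 0.087, 0.18 ± 0.087 and 0.23 ± 0.087 elsewhere. Mybl2, which encodes B-Myb, was not called, at 0.051 ± 0.071, 0.15 ± 0.071, 0.11 ± 0.071 and 0.12 ± 0.071. E2f8, an atypical E2F that represses, changed by 0.53 ± 0.11, 0.51 ± 0.11, 0.54 ± 0.11 and 0.37 ± 0.11 (adjusted p = 0.00198, 0.000886, 0.00115 and 0.0173).

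Markers of lung cell types were read beside the cycle genes. Their counts stand against 8.95%, 18.4%, 10.6% and 12.7% of all features called higher and 8%, 16.4%, 10.4% and 11% called lower. Of 17 tested markers of macrophages and monocytes 10, 11, 9 and 8 rose, with medians of 0.68, 0.77, 0.79 and 0.48, and Siglecf fell in the last 3 exposures. The mean of this list per animal, against the control mean, was -0.079 to 0.13 in controls, 0.52 to 0.82 in NM-401 low, 0.86 to 1.07 in NM-401 high, 0.74 to 0.83 in Mitsui low and 0.40 to 0.82 in Mitsui high. Of 10 alveolar type 2 markers 4, 6, 7 and 6 rose, and of 9 alveolar type 1 markers 4, 6, 5 and 5 fell, with Pdpn rising in NM-401 high. The type 2 list mean was -0.19 to 0.12 in controls and 0.14 to 0.41, 0.20 to 0.52, 0.38 to 0.50 and 0.25 to 0.37 in the exposed groups. Of 10 endothelial markers 2, 5, 2 and 3 fell. Of 9 airway markers 2, 3, 3 and 6 rose, and Cyp2f2 fell with NM-401 high. Of 9 tested neutrophil markers 1, 3, 2 and 2 rose, with Ltf among them in each exposure. Of 11 fibroblast and smooth muscle markers 1, 3, 1 and 3 rose and 3, 4, 3 and 2 fell, and of 7 mesothelial markers 1, 4, 0 and 3 fell. The part of these cell types in the rise of the cycle genes was not tested.

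Over all features 16.9%, 34.8%, 20.9% and 23.7% were called in either direction, against which calls in the marker lists can be read. Of 6 tested thymus markers Cd4 rose with NM-401 high, and Cd1d1 fell with Mitsui low and Mitsui high. The thymus list mean was -0.25 to 0.26 in controls and -0.33 to 0.20, -0.19 to 0.26, -0.36 to 0.074 and -0.27 to -0.024 in the exposed groups. Of 10 tested B and plasma cell markers Jchain rose with NM-401 low, NM-401 high and Mitsui high, Mzb1 and Tnfrsf17 rose with NM-401 high, and Fcrla fell with Mitsui low. That list had a mean of -0.41 to 0.45 in controls and -0.0078 to 0.34, -0.11 to 0.64, -0.20 to -0.014 and -0.21 to 0.58 in the exposed groups, so it overlapped with the controls in each. Of 12 T and NK cell markers 0 were called with NM-401 low and Mitsui high, Cd5 rose and Gzma fell with NM-401 high, and Ncr1 fell with Mitsui low. Of 7 tested markers of erythroid precursors 0, 1, 0 and 0 rose and 3, 3, 1 and 2 fell. Tal1 fell in every exposure, Alas2 in all but Mitsui low, and Slc4a1 with both NM-401 doses, while Tfrc rose with NM-401 high. The erythroid list mean was -0.23 to 0.18 in controls and -0.33 to -0.20, -0.42 to -0.17, -0.37 to -0.024 and -0.35 to 0.13 in the exposed groups.

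**Figure D5:**
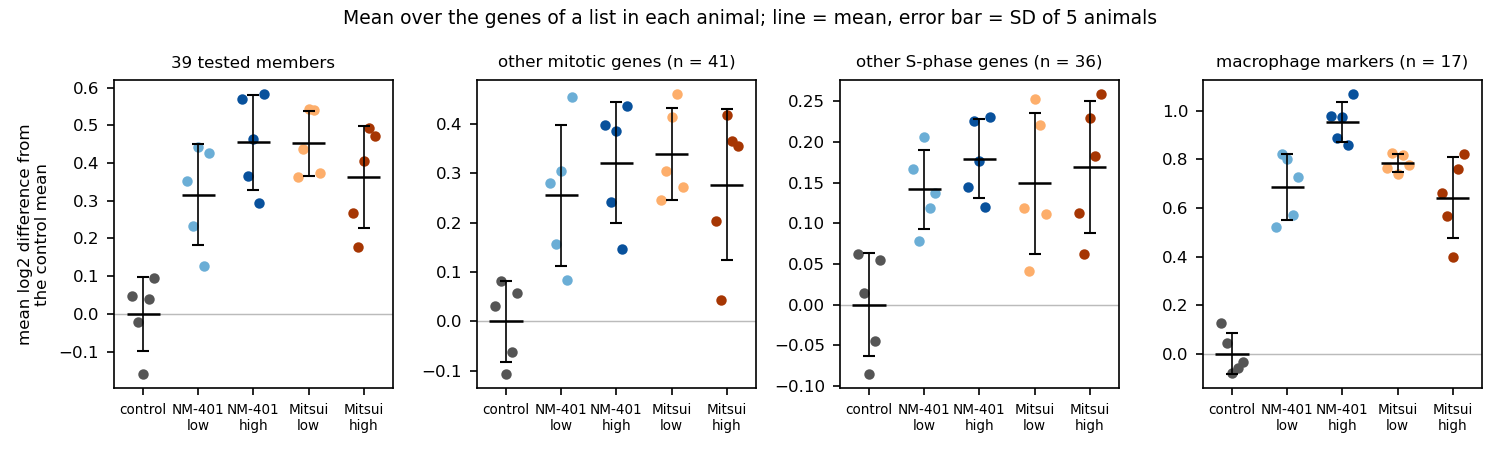
Mean over the genes of a list in each animal, as a log2 difference from the control mean (vertical axis, a separate scale in each panel), for the 39 tested members, 41 other mitotic genes, 36 other S-phase genes and 17 macrophage and monocyte markers. Horizontal lines are group means and bars the SD of 5 animals. In the member panel the 20 exposed animals all lie above the controls, which reach 0.095.

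The 5 members that were not tested had values near background. For Cdk1, the kinase of mitotic entry, the best of 3 probes was above background in 2 controls and in 3, 1, 3 and 2 animals of the low and high NM-401 and the low and high Mitsui groups. For Cdc6 the counts were 0, 1, 3, 2 and 2, for Cenpf 0, 1, 1, 0 and 0, and for Ccne2 0, 0, 1, 0 and 0. Aurkb was above background in 0 of 25 animals. Changes of these genes were not detectable on these probes, which does not show that they were absent. Of the tested members, Kif11 and Kif2c were above background in 3 and 2 of 5 controls and the other 37 in at least 4.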

How the data were processed

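Lung RNA in Cy5 and a universal mouse reference RNA in Cy3 were hybridised to 2-colour Agilent arrays and read with Agilent Feature Extraction 11.0.1.1, per the submitters' processing notes. The deposited scanner files give spot intensities, background intensities, spot flags (a score of 0 or 1) and log10 ratios, per the file headers. The authors' deposited value table holds log2 ratios whose normalisation, scale and centring are not stated. Against the scanner log2 ratios it correlated at 0.918 or more, with slopes of 0.603 to 0.669 and column medians of -0.0400 to -0.0181, and it served as an alternative.

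From the intensities, background was corrected by normexp (offset 50) on the median signals, and each array was normalised by loess, in limma 3.58.1 (R 4.3.3). Outlier spots (0.461%) were dropped. Of 55681 probes, 30466 were kept, and the brightest kept probe stood for a gene, giving 22950 features, of which 8112 had no symbol. Probes were named by matching their accessions, without versions, to the RefSeq gene table, and 28446 probes had no symbol. The 2 arrays of 1 animal were averaged. One mean per group was fitted over 25 animals with lmFit and eBayes, and Benjamini-Hochberg adjustment ran over all features. Standard errors and intervals come from that fit. The fit was tested on simulated data. The number of arrays limits the precision, and p-values measure the spread between animals as labelled.

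The members and gene lists were chosen with earlier results of these data known. Values per animal are given for Mki67, Top2a and, in each role group, the tested members with the largest and smallest change in NM-401 high. Of the further cell cycle lists, up to 4 called genes per comparison with the largest changes may be named, and always Cdkn1a, Ccnd1, Myc and Mybl2. Some genes of these lists are not reported here. Animals with the same number in different groups did not deviate together as a rule. Their 50 pairs correlated at -0.38 to 0.41, with a median of -0.0034 and 12 pairs over 0.1. This does not exclude shared handling of some of them, and the main fit used no pairing.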

Additional observations from a re-analysis of the deposited data

Results flagged for a closer look

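Of 90 groups of 5 animals over the 18 members with values per animal, 4 held a sample far from the other 4 by Dixon's test, and chance gives about 1 in 20. Tpx2 stood at -1.42 in NM-401 low animal 5 and between -3.89 and -3.41 in the rest of that group. Rrm2 stood at -4.53 in control 3, against -3.95 to -3.81 in the other controls. Cenpe stood at -4.58 in the same animal, against -4.15 to -4.01. Rrm1 stood at -2.22 in NM-401 high animal 2, against -2.16 to -2.14, a gap of small size in a narrow group.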

How the results depend on the processing

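The counts of 18, 30, 28 and 22 members called against control were within 1.5 times under all alternatives run except median centring, which gave 0 in each and 0 for NM-401 high against low. Under median centring 62, 1064, 74 and 121 features were called in the 4 exposures, of which 83.9%, 89.4%, 83.8% and 86.8% were higher, against 52.8%, 52.9%, 50.4% and 53.5% with loess. It moved the median of all features to -0.109, 0.166, -0.144 and -0.126, with member medians of 0.126, 0.673, 0.216 and 0.133. The authors' deposited values gave 12, 26, 25 and 20 members, a fit on Cy5 alone 13, 25, 23 and 18, a slide block 19, 32, 28 and 23, and the replicate block 18, 30, 27 and 23. The Cy5 values were taken after loess and a quantile step on the mean intensity of both dyes. They therefore still depend on Cy3 and on loess. Of all features, 16.9%, 34.8%, 20.9% and 23.7% were called in either direction in the main fit. The shares were 17.7%, 35%, 21.2% and 24.1% with the authors' values and 16.7%, 34.1%, 21.4% and 23.9% on Cy5 alone. A slide block gave 22.5%, 41%, 25.7% and 30%, and the replicate block 16.7%, 34.2%, 20.6% and 23.2%. With 1 animal left out the member counts ranged from 12 to 18, 25 to 32, 22 to 29 and 16 to 25. The shares of all features then ranged from 12.7% to 17.4%, 30.3% to 35.4%, 17.4% to 21.7% and 19.2% to 24.6%. Member counts ranged from 0 to 1 for NM-401 high against low and for the materials at the high dose, and were 0 in the other 3 comparisons. The single Gins2 call between NM-401 doses became 0 with offset 10, Cy5 alone, no filter on dim probes, and a trended robust fit. Between NM-401 high and low 882 features were called, and 1562 with a slide block, which also gave 510 against 182 for the materials at the high dose, 121 against 7 for the dose step and 15 against 0 for Mitsui high against low.

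For the 18 members with values per animal, 48 of 1800 changes against control recomputed without 1 animal lost a call and 7 gained 1. Of 1076 under other alternatives, 67 lost a call and 5 gained 1. Median centring accounted for 44 of the 67, which was every call these members had. Both totals include changes that were not called in the main fit and so could not lose a call. Signs turned only in values near 0 or under median centring. Under the latter Rrm1 was -0.079 with NM-401 low and -0.16 with Mitsui low, Foxm1 -0.029 and Ube2c -0.028 with NM-401 low, Cenpa -0.030, -0.028 and -0.086 with NM-401 low, Mitsui low and Mitsui high, E2f1 -0.028 with Mitsui high, and Mcm4 0.24 with NM-401 high and -0.20 with Mitsui high. Kif2c with NM-401 high was -0.031 without background correction and -0.098 with the authors' values, which gave -0.022 with NM-401 low. Mcm4 with Mitsui high was -0.015 with Feature Extraction ratios, -0.0065 with the authors' values and -0.017 with Cy5 alone. Mcm4 with Mitsui low was 0.036 with a slide block and 0.026 with the second array of the repeated animal. Rrm1 with Mitsui high was 0.0021 with the authors' values and 0.014 with Cy5 alone, and with NM-401 high -0.10 with Cy5 alone. With 1 animal left out Mcm4 ranged from -0.086 to 0.014 with NM-401 low, -0.069 to 0.031 with Mitsui low and -0.054 to 0.046 with Mitsui high, Rrm1 from -0.0086 to 0.080 with NM-401 high and -0.073 to 0.071 with Mitsui high, and Kif2c from -0.045 to 0.13 with NM-401 high. The causes of these shifts were not tested. The alternative by the scanner files' gene name column was not run, since the files used here hold no such column.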
